A study of Mus musculus with 3 samples.

Results

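Nuclear oxidative phosphorylation genes were taken as the gene symbols that start with *Nduf*, *Uqcr*, *Sdh*, *Atp5*, *Cox4*, *Cox5*, *Cox6*, *Cox7* or *Cox8*, without names that end in -ps. They were 97 of the 32285 genes measured. By role they were 36 subunits of complex I, 4 of complex II, 8 of complex III, 20 of complex IV, 17 of complex V and 12 assembly factors of complexes I and II. *Ndufa4* and *Ndufa4l2* were counted with complex IV, where the *Ndufa4* protein sits. The 13 protein-coding genes of mitochondrial DNA, whose symbols start with mt-, were set beside them.

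In the respiratory chain, complex I oxidises NADH and complex II oxidises succinate, and both pass electrons through ubiquinone, complex III and cytochrome c to complex IV, which reduces oxygen. Complex V makes ATP from the proton gradient that complexes I, III and IV build. Complex II is encoded wholly in the nucleus, whereas the other complexes also hold subunits made inside the mitochondrion, and dendritic cells are known to shift between respiration and glycolysis when they are activated.

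Conventional dendritic cells (cDCs) were sorted from MCA205 LA OVA tumours, a mouse fibrosarcoma, at day 5, and pre-cDCs, cDC1s and cDC2s of each genotype were pooled into 1 droplet library. The genotypes were WT, sGSN-/- mice, which lack secreted gelsolin, and sGSN-/-Clec9a-/- mice, which also lack DNGR-1, the receptor that *Clec9a* encodes. The pools held 37, 31 and 27 mice aged 6 to 20 weeks, with 25 males and 12 females, 15 and 16, and 10 and 17, in the order WT, sGSN-/- and sGSN-/-Clec9a-/-. Each genotype had 1 library, so a difference between genotypes has no replicate check, and the differing share of males cannot be told apart from genotype.

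The libraries held 12763, 8173 and 9273 barcodes with 176578136, 109270958 and 113411930 UMIs (counted RNA molecules). The deposited cell table assigns 2316, 1712 and 1778 of these barcodes to cDC1s, 5806 cells or 19.2% of all barcodes, in 12 clusters. Levels are given as CPM, a gene's UMIs scaled by the summed UMIs of the cells, always in the order WT, sGSN-/- and sGSN-/-Clec9a-/-, and shares are percentages of all UMIs. The labels held where they could be checked. *Clec9a* stood at 168, 168 and 0.0931 CPM in cDC1s, the last from 2 UMIs (95% Poisson interval 0.0113 to 0.336). *Gsn* stood at 152, 169 and 167 CPM, but a 3′ tag does not tell the secreted form from the intracellular form, so it does not check the sGSN-/- label. The 6 cDC1 markers summed to 3441, 3305 and 3411 CPM, with *Naaa* the most abundant at a mean of 1349 CPM. Between libraries 81 barcode sequences recur, 7 of them among cDC1s.

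Most of these genes were readily measured in cDC1s. Of the 97 members, 75 reached a mean of 50 CPM over the 3 libraries, and all 8 complex III and all 17 complex V members were among them. The members spanned 18.7 to 499 CPM in complex I (median 130), 34.8 to 122 in complex II (median 66.9), 96.5 to 461 in complex III (median 250.3) and 191 to 1084 in complex V (median 382). These are levels from 3′ tags, not divided by transcript length. Complex IV members ran from 0 to 933 CPM (median 294), as its list holds tissue-restricted isoforms beside the common ones, and assembly factors from 5.45 to 71.6 (median 17.4). *Atp5e*, the epsilon subunit of complex V, stood at 1124, 1049 and 1080 CPM. The isoform genes *Cox7b2*, *Cox8b* and *Cox8c* had 0 UMIs in cDC1s of each library, where 3 UMIs would be 0.0918, 0.127 and 0.140 CPM.

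Across the whole cDC1 population the 97 genes took an almost equal share of the RNA in each library, 2.15%, 2.18% and 2.16% (mean 2.16 ± 0.0119, SD, n = 3). The clusters differed far more than the libraries. Cluster 5 had the highest share at 2.57%, 2.59% and 2.61%, followed by cluster 1 at 2.52%, 2.44% and 2.51% and cluster 10 at 2.39%, 2.39% and 2.43%. Cluster 4 (mean 2.26 ± 0.0247), clusters 0 and 7 (2.20 ± 0.0438 and 2.20 ± 0.0257), cluster 2 (2.10 ± 0.0236) and cluster 3 (1.96 ± 0.0653) came next. Cluster 9 (1.81 ± 0.0678), cluster 8 (1.64 ± 0.0159) and cluster 6 (1.49 ± 0.0426) were low, and cluster 11 lowest at 0.828%, 0.872% and 1.002%. Each cluster stood above the next in this order in 3 of 3 libraries, apart from clusters 0 and 7, which changed places in 1 library. The ranges of clusters 3 and 9 also overlapped. Cluster 11 held 60 cells with a median of 2348 UMIs and cluster 6 held 498 cells with a median of 8530.5, against 13501 in all cDC1s. *Malat1*, a nuclear RNA whose share rises when cytoplasmic RNA is lost, took 6.87 ± 1.38% of UMIs in cluster 11 and 3.61 ± 0.327% in cluster 6, against 2.72 ± 0.168% overall. The 5 cell-cycle markers summed to 82.6, 82.5 and 57.2 CPM in cluster 5, the highest in nuclear share, but also to 69.1, 59.5 and 56.2 in cluster 9 and 77.5, 84.2 and 15.5 in cluster 8, which were low, against 26.0, 29.5 and 22.9 in all cDC1s. What depth, RNA loss and cell cycle each contribute to the order was not tested.

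**Figure D1:**
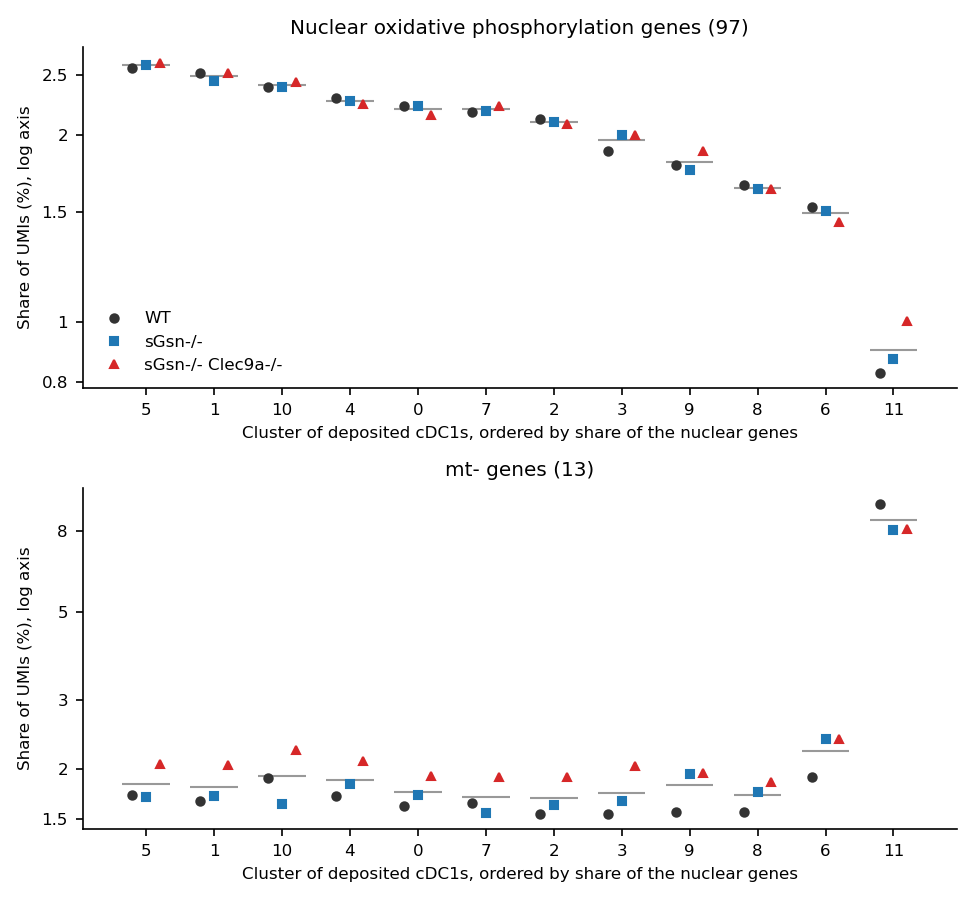
Share of all UMIs, in percent on log axes, that fell on the 97 nuclear genes (top) and on the 13 mt- genes (bottom) in the 12 clusters, with 1 point per library and the mean of 3 as a grey line. The nuclear share runs from 2.59% in cluster 5 to 0.901% in cluster 11, while the mt- share of cluster 11 reaches 8.51%.

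The mitochondrial genes did not follow that order. Their share was highest in cluster 11 (8.51 ± 0.762%) and cluster 6 (2.23 ± 0.274%), the clusters lowest in the nuclear genes. In the other 10 clusters it lay between 1.69 ± 0.192% in cluster 2 and 1.92 ± 0.304% in cluster 10, and the ranges of neighbours overlapped. The ratio of nuclear to mitochondrial share was thus 1.49, 1.52 and 1.26 in cluster 5, 1.06, 0.933 and 0.881 in cluster 8, 0.80, 0.634 and 0.605 in cluster 6 and 0.0882, 0.108 and 0.124 in cluster 11.

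Members differed in how far they moved between clusters. For the 75 members at 50 CPM or more and clusters 0 to 10, the highest cluster mean was 1.30 to 3.24 times the lowest (median 2.02). The highest mean lay in cluster 5 for 35 members, in cluster 1 for 16 and in cluster 10 for 15. The lowest mean lay in cluster 6 for 45 members and in cluster 8 for 28, of which 18 belonged to complex I. *Ndufs3*, a core subunit of complex I, had the widest range, 79.2 ± 5.02 CPM in cluster 5 and 24.4 ± 6.14 in cluster 8. *Uqcrh*, the hinge protein of complex III, had the narrowest.

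Early cDC1s took a larger share of their RNA from oxidative phosphorylation genes than resting ones, in every complex. The study takes clusters 4 and 1 (1332 cells) as early and clusters 5, 2, 3, 6 and 0 (3499 cells) as resting. The nuclear share was 2.43%, 2.38% and 2.41% in early cells and 2.10%, 2.16% and 2.09% in resting cells, a difference of 0.290 ± 0.0617 percentage points (n = 3). Complex I took 0.664 ± 0.00812% of UMIs in early and 0.568 ± 0.0141% in resting cells, complex II 0.0327 ± 0.000547% and 0.0283 ± 0.00174%, complex III 0.223 ± 0.00321% and 0.197 ± 0.00255%, complex IV 0.644 ± 0.00598% and 0.590 ± 0.00937%, and complex V 0.814 ± 0.0115% and 0.710 ± 0.0100%. Each of these shares was higher in early cells in 3 of 3 libraries. The single clusters did not part in this way: the resting cluster 5 (mean 2.59%) stood above both early clusters in each library, and the resting cluster 6 (1.49%), with fewer UMIs per cell, lowers the pooled resting share.

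Of the 91 members with enough counts to test by edgeR, 65 were higher in early cells at an adjusted p under 0.05, against 19.1% of all genes tested. Only *Ndufa6* was lower, against 19.4% of all genes. The median log2 fold change of the members was 0.26, and that of all genes −0.01. Abundance matters to such a count, and among genes at 50 CPM or more, 76.0% of the 75 members and 27.6% of all 2405 genes were higher, and 1.33% and 26.8% lower. By role, 31 of 36 complex I members were higher, 3 of 4 in complex II, 4 of 8 in complex III, 7 of 14 in complex IV, 13 of 17 in complex V and 7 of 12 assembly factors. Without the WT library 39 members were called higher. With the library as a block 76 were higher and 2 lower.

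The largest early increases belonged to assembly factors. *Ndufaf4*, which helps to assemble complex I, stood at 29.7, 26.8 and 23.5 CPM in early cells and at 17.7, 17.9 and 15.7 in resting cells, so the groups did not overlap. It rose by 0.65 on the log2 scale (SE 0.09, adjusted p = 9.83e-05, higher in 3 of 3 libraries). *Sdhaf1*, which guards the iron-sulfur clusters of the complex II subunit *Sdhb*, stood at 16, 14.7 and 15.8 CPM against 9.85, 10.5 and 10.2. Its rise was 0.61 (SE 0.11, adjusted p = 0.000741, 3 of 3 libraries). *Ndufaf6*, another complex I assembly factor, stood at 21.2, 27.0 and 25.1 against 17.4, 18.2 and 16.1 CPM and rose by 0.50 (SE 0.10, adjusted p = 0.00180, 3 of 3 libraries), a call lost when cells were thinned to equal depth (0.43, adjusted p = 0.0592).

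Among subunits, *Ndufa9*, an accessory subunit of complex I, stood at 73.3, 70.2 and 84.5 CPM in early and at 48.5, 58.8 and 56.5 in resting cells, and rose by 0.48 (SE 0.10, adjusted p = 0.00158, 3 of 3 libraries). *Ndufa6*, a complex I subunit of the LYR family that binds the acyl carrier protein, went the other way. It stood at 432.5, 417 and 459 CPM in early and 559, 536 and 557 in resting cells, and fell by 0.33 (SE 0.07, adjusted p = 0.00146, lower in 3 of 3 libraries). The smallest called increases were those of *Atp5g3*, 1 of 3 genes for the proton-carrying c ring, *Atp5b*, the catalytic beta subunit, and *Sdha*, the succinate-oxidising subunit, at 0.16, 0.17 and 0.17. These 3 calls were lost without any 1 of the libraries, while the changes stayed of like size. Without WT, sGSN-/- and sGSN-/-Clec9a-/- in turn, *Atp5g3* was at 0.13, 0.20 and 0.15 (adjusted p = 0.235, 0.0686 and 0.130), *Atp5b* at 0.16, 0.18 and 0.17 (0.107, 0.136 and 0.0996) and *Sdha* at 0.20, 0.15 and 0.16 (0.125, 0.234 and 0.143). All 3 were also lost without a filter (0.12, 0.14 and 0.13), *Atp5b* and *Sdha* at equal depth (0.18 and 0.22), and *Atp5g3* and *Sdha* with DESeq2 (0.16 and 0.17, adjusted p = 0.0700 and 0.202) and without TMM scaling (0.15 and 0.16, adjusted p = 0.0713 and 0.0920). *Sdhb* and *Sdhd*, the iron-sulfur and a membrane subunit of complex II, each rose by 0.23, but not without WT (0.21 and 0.24, adjusted p = 0.115 and 0.111) or without sGSN-/-Clec9a-/- (0.21 and 0.16, adjusted p = 0.0612 and 0.148), nor at equal depth (0.20 and 0.17). *Sdhc*, the other membrane subunit, was not called.

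Of the 13 mt- genes only *mt-Cytb*, the mitochondrial subunit of complex III, rose, from 1208, 1315 and 1359 CPM in resting to 1431, 1549 and 1622 in early cells. The change was 0.25, and its call was lost at the same size without WT (0.25, adjusted p = 0.0520) or sGSN-/- (0.25, adjusted p = 0.132). Neighbouring lists can be set beside the 19.1% of all genes that were higher and the 19.4% that were lower (27.6% and 26.8% at 50 CPM or more). Here 45 of 78 mitochondrial ribosome genes were higher and 1 lower (median 0.25), 14 of 24 import genes higher (0.23), 8 of 13 tricarboxylic acid cycle genes higher (0.24) and 3 of 4 genes for cytochrome c and carriers higher. *Mdh2*, malate dehydrogenase, rose by 0.66 and *Cycs*, cytochrome c, by 0.45. Of 13 regulators of mitochondrial gene expression 1 was higher and 3 lower, near or under those shares, and the 3 lower were *Ppargc1b* (−1.58), *Esrra* (−0.52) and *Twnk* (−0.55). The first 2 of these encode a coactivator and a nuclear receptor known to drive respiratory chain genes. Of 16 complex III and IV assembly genes outside the rule 4 were higher, of 14 glycolysis genes 7 were higher and 1 lower, of 9 hypoxia genes 5 and 1, and of 80 cytosolic ribosome genes 22 higher.

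Other measures differed between early and resting cells too. The 6 monocyte markers summed to 1036, 1119 and 1163 CPM in early and 593, 683 and 646 in resting cells (most abundant *Plac8*), and the 6 NK markers to 169, 219 and 192 against 48.1, 81.3 and 51.0 (most abundant *Klrd1*), with none at 0 UMIs. When cells with markers of other types were left out, 71 members were higher and 1 lower.

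Cluster 7, an activated cluster of 422 cells, showed a smaller increase. Its nuclear share was 2.18%, 2.19% and 2.23%, above resting cells by 0.0749, 0.0262 and 0.135 percentage points. Of 91 members 24 were called higher, against 12.6% of all genes, and 2 lower, against 6.56%. At 50 CPM or more the gap in higher calls was smaller, with 30.7% of members and 22.2% of all genes. The gap in lower calls was wider, with 1.33% and 8.98%. The members' median was 0.17 and that of all genes −0.03, while with DESeq2, which also tests genes of low counts, they were 0.18 and 0.09. The count of higher members was 11 without WT, 9 without sGSN-/- and 9 without sGSN-/-Clec9a-/-, with 1 lower each time, 12 higher and 1 lower at equal depth, 15 higher and 3 lower without a filter, and 45 higher and 3 lower with the library as a block. Without TMM scaling, which moves the median of all genes to −0.14, the members' median was 0.07 and 5 were higher and 3 lower.

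The 4 largest called increases in cluster 7 belonged to an assembly factor of complex I and to subunits of complexes V, IV and III. *Ndufaf6* stood at 32.0, 32.7 and 39.9 CPM against 17.4, 18.2 and 16.1 in resting cells and rose by 1.11 (SE 0.13, adjusted p = 4.22e-06, 3 of 3 libraries). *Atp5o*, part of the stalk that holds the catalytic head of complex V, stood at 223, 231 and 224 against 177, 189 and 182 CPM and rose by 0.42 (SE 0.08, adjusted p = 0.000577, 3 of 3 libraries). *Cox5a*, a common subunit of complex IV, went from 256, 289 and 264.5 to 318, 368 and 299.8 CPM and rose by 0.39. *Uqcrb*, which binds ubiquinone in complex III, went from 336, 351 and 329 to 378, 408 and 421 CPM and rose by 0.36. Neither pair of groups overlapped. *Cox7a2l*, which joins complexes III and IV into supercomplexes, stood at 206, 224 and 229 against 275, 307 and 322 CPM. It fell by 0.35 (SE 0.09, adjusted p = 0.0110, lower in 3 of 3 libraries), but not without sGSN-/- (−0.36, adjusted p = 0.0730). *Ndufaf4* stood at 7.89, 12.3 and 8.55 CPM and fell by 0.73, but not without WT (−0.56, adjusted p = 0.143) or sGSN-/-Clec9a-/- (−0.71, adjusted p = 0.0544), nor at equal depth (−1.10, adjusted p = 0.0691). The smallest called increases, *Ndufa1* (0.22) and *Ndufa4* (0.23), were lost without any 1 library at like size, *Ndufa1* at 0.25, 0.20 and 0.22 (adjusted p = 0.0947, 0.192 and 0.129) and *Ndufa4* at 0.22, 0.26 and 0.20 (0.101, 0.0867 and 0.157). Without TMM scaling they halved to 0.11 and 0.12, without a filter they were 0.18 and 0.18 and at equal depth 0.17 and 0.16, and none of these passed. In the other lists 0 of 13 mt- genes were called by edgeR (0 at unadjusted p < 0.05) and 0 by DESeq2, 9 of 78 mitochondrial ribosome genes were higher and 1 lower, beside 12.6% and 6.56% of all genes, and 5 of 14 glycolysis genes were higher and 1 lower. Markers moved as well: the 6 monocyte markers summed to 1221, 1505 and 1437 CPM in cluster 7 against 593, 683 and 646 in resting cells (most abundant *Plac8*), and the 5 pre-cDC markers to 149, 139 and 146 against 41.8, 43.0 and 39.2 (most abundant *Tcf4*). With cells that carry markers of other types left out, 22 members were higher and 2 lower.

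Cluster 8, the activated cluster of 255 cells in which the chemokine receptor gene *Ccr7* stood at 2412, 2424 and 1166 CPM, gave a smaller share of its RNA to oxidative phosphorylation genes, with the widest gap in complex I. The nuclear share was 1.66%, 1.63% and 1.64%, and its difference from resting cells was −0.474 ± 0.0468 percentage points (n = 3). Complex I took 0.375 ± 0.00381% of UMIs against 0.568 ± 0.0141% in resting cells, complex V 0.563 ± 0.00631% against 0.710 ± 0.0100%, and complex IV 0.501 ± 0.0105% against 0.590 ± 0.00937%. The assembly factors together held 0.0244 ± 0.00245% against 0.0246 ± 0.000985%, with strong changes in both directions among them.

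By edgeR 36 of 91 members were lower in cluster 8, against 20.2% of all genes, and 4 were higher, against 22.8%. The median of the members was −0.27 and that of all genes −0.07. The difference changed with the fit. With low-count genes included, the medians were −0.40 against −0.36 without a filter and −0.27 against 0.36 with DESeq2. At 50 CPM or more the gap in lower calls was smaller, with 41.3% of members and 33.2% of all genes. The gap in higher calls was wider, with 1.33% and 25.7%. Lower members were 21 of 36 in complex I, 1 of 4 in complex II, 3 of 8 in complex III, 2 of 14 in complex IV, 4 of 17 in complex V and 5 of 12 assembly factors. The lower count was 19 without WT, 21 without sGSN-/- and 37 without sGSN-/-Clec9a-/-. Without TMM scaling, which moves the median of all genes to −0.25, it was 62 and the members' median −0.46. With cells chosen by state markers in place of clusters, 48 were lower and 3 higher, and the members' median was −0.50 against −0.11 for all genes. In single libraries 9, 5 and 8 of the 91 members were above their resting level.

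*Sdhaf1* changed most of all members. It stood at 83.3, 96.0 and 58.2 CPM in cluster 8 and at 9.85, 10.5 and 10.2 in resting cells, which set every library of the group apart from every resting one. It rose by 3.22 on the log2 scale (SE 0.16, adjusted p = 3.13e-10, 3 of 3 libraries). Among the other 10 clusters with more than 60 cells, its mean lay between 7.29 and 20.5 CPM, with cluster 10 at the top. *Sdhaf2*, which attaches the flavin to *Sdha*, stood at 63.9, 50.4 and 38.8 against 28.2, 28.5 and 27.3 CPM and rose by 1.11 (SE 0.15, adjusted p = 1.98e-05, 3 of 3 libraries). The complex II subunits did not follow these factors: *Sdhd* stood at 41.7, 44.1 and 48.5 against 77.4, 83.1 and 71.4 CPM and fell by 0.62 (adjusted p = 0.00160, lower in 3 of 3 libraries), and *Sdha*, *Sdhb* and *Sdhc* were not called.

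The other increases lay in complex IV. *Cox5a* stood at 405, 386.5 and 287 CPM in cluster 8 against 256, 289 and 264.5, higher in each library than in its own resting cells, although the lowest value of the group lies under the highest resting one. It rose by 0.62 (SE 0.12, adjusted p = 0.000644, 3 of 3 libraries). *Cox7a1*, the heart and muscle form of subunit 7a, stood at 5.81, 9.45 and 7.76 against 3.79, 4.83 and 3.51 CPM and was called at 1.14, but not without WT (1.28, adjusted p = 0.0562), without sGSN-/- (0.96, adjusted p = 0.190) with cells thinned to equal depth (0.32) or with cells chosen by state markers (0.65, adjusted p = 0.382).

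Among the decreases *Ndufaf6* and *Ndufa6* stood out. *Ndufaf6* was almost absent from cluster 8, at 2.91, 2.36 and 3.88 CPM from 3, 3 and 2 UMIs, against 17.4, 18.2 and 16.1 CPM in resting cells, and fell by 2.40 (SE 0.34, adjusted p = 3.54e-05, lower in 3 of 3 libraries). *Ndufa6* stood at 229, 187 and 221 against 559, 536 and 557 CPM and fell by 1.19 (SE 0.11, adjusted p = 6.87e-07, lower in 3 of 3 libraries). Thus *Ndufaf6* was high in cluster 7 and low in cluster 8. *Ndufaf4* stood at 3.88, 5.51 and 15.5 CPM, the last close to its resting value of 15.7, and its fall of 1.14 was lost without WT (−0.80, adjusted p = 0.173), without sGSN-/- (−0.95, adjusted p = 0.141) or at equal depth (−1.41, adjusted p = 0.0905). *Cox6b2*, known from testis, stood at 0.969, 0.787 and 3.88 against 5.02, 5.80 and 5.23 CPM, a fall of 1.70 by the fit. As it passed the count filter through the resting cells alone, the fit is given as a size only. Its call, counted among the lower members above, was lost without WT (−1.51) or sGSN-/- (−1.24). It was also lost with DESeq2 (−1.72) and with cells that carry other markers left out (−1.47).

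The mitochondrial genes themselves had a similar share in cluster 8, 1.56%, 1.75% and 1.86% against 1.63%, 1.73% and 2.01% in resting cells. By edgeR 1 of the 13 was called (DESeq2 called 2 higher), *mt-Nd6*, the one gene on the light strand, at 22.3, 33.1 and 25.2 against 19.5, 19.8 and 17 CPM. Its rise of 0.74 was lost without sGSN-/- (0.49, adjusted p = 0.184) and at equal depth (0.30, adjusted p = 0.609). Among other nuclear genes for mitochondrial proteins, 46 of 78 for the mitochondrial ribosome were lower, 6 higher and 26 not called (median −0.53), 10 of 24 import genes were lower and 14 not called (−0.36), and 5 of 13 tricarboxylic acid cycle genes were lower and 8 not called (−0.20), beside the 20.2% of all genes tested and 33.2% of those at 50 CPM or more that were lower. Of 16 complex III and IV assembly genes outside the rule 8 were lower and 2 higher, of 4 cytochrome c and carrier genes 2 lower and 1 higher, and of 13 regulators 1 and 1. Of 14 glycolysis genes 5 were lower and 4 higher, of 8 hypoxia genes 1 and 3, and of 80 cytosolic ribosome genes 20 lower (median −0.22), beside 22.8% of all genes higher.

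Cluster 8 also differed from resting cells in depth and in markers. Its median was 10867 UMIs per cell against 13930, *Malat1* took 5.07 ± 0.347% of UMIs against 2.83 ± 0.194%, and the cytosolic ribosome genes took 18.01 ± 1.52% against 23.7 ± 0.676%. The 9 cDC2 markers summed to 1519, 1286 and 976 CPM against 182, 164 and 170, most of it *Tbc1d4* (mean 961), and the 6 cDC1 markers to 1407, 1307 and 1591 against 3888, 3818 and 3864. The 6 macrophage markers reached 568 CPM in the WT library but 43.3 and 71.8 in the others. With cells that carry markers of other types left out, 40 members were lower and 4 higher. The part of depth and RNA loss in the decrease was not tested beyond thinning cells to 3900 UMIs. That step left out the 288 cDC1s with fewer UMIs, and of 88 members tested 29 were lower and 3 higher.

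**Figure D2:**
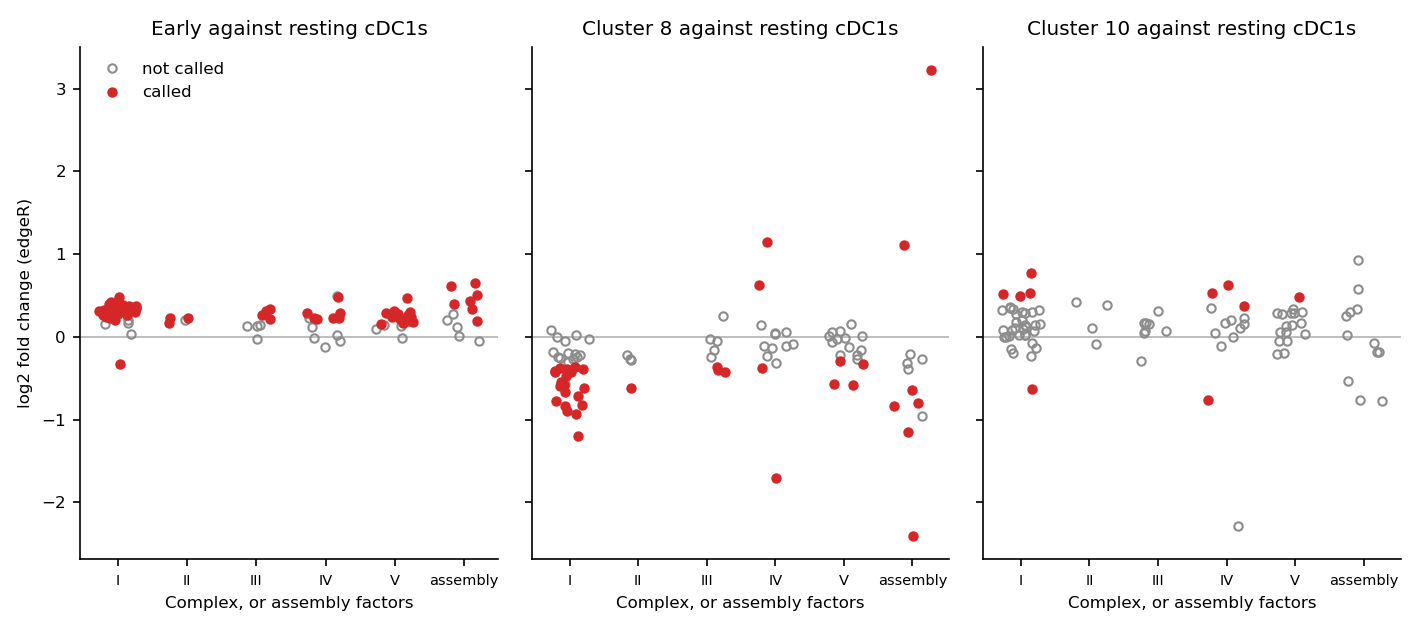
Log2 fold change of each tested member (91 per panel) against resting cDC1s, for early cells, cluster 8 and cluster 10, by complex, with members at an adjusted p under 0.05 filled in red. Early cells have 65 members called higher, cluster 8 has 36 called lower, most of them in complex I, and *Sdhaf1* is the point at 3.22.

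Cluster 9, with 162 cells, leaned the same way as cluster 8, with few calls. Its nuclear share was 1.79%, 1.75% and 1.88%, and its difference from resting cells was −0.314, −0.408 and −0.207 percentage points in turn. By edgeR 5 of 91 members were lower, against 1.33% of all genes, and 0 were higher, against 4.04%. At 50 CPM or more the gap in lower calls narrowed, with 6.67% of members and 4.16% of all genes. The gap in higher calls widened, with 0% and 8.36%. The members' median was −0.21 against −0.01 for all genes, 39 members had an unadjusted p under 0.05, and DESeq2 called 17 lower and 0 higher. Without a filter the medians were −0.25 and −0.19, which leaves little difference, and with DESeq2 −0.20 and 0.18. With the library as a block 10 were lower, and at equal depth 2. The 5 were *Ndufb4* (83.5, 63.1 and 90.3 against 112, 117 and 111 CPM), *Ndufab1*, the mitochondrial acyl carrier protein, *Ndufb11*, *Sdhd* and *Atp5d*, a subunit of the rotating stalk of complex V. Their changes ran from −0.47 for *Ndufb4* (SE 0.12, adjusted p = 0.0249, lower in 3 of 3 libraries) to −0.37 for *Atp5d* (SE 0.09, adjusted p = 0.0235, lower in 3 of 3 libraries). The calls were fragile. Without WT only *Atp5d* stayed (*Ndufb4* −0.54, *Ndufab1* −0.39, *Ndufb11* −0.45 and *Sdhd* −0.43 were no longer called), without sGSN-/- 0 members were lower (*Ndufb4* −0.35, *Ndufab1* −0.42, *Ndufb11* −0.28, *Sdhd* −0.41, *Atp5d* −0.29), and without sGSN-/-Clec9a-/- 1 was, which was none of these 5 (*Ndufb4* −0.57, *Ndufab1* −0.46, *Ndufb11* −0.44, *Sdhd* −0.46, *Atp5d* −0.39). *Sdhd*, at −0.43 (adjusted p = 0.0496), also lost its call with the library as a block (−0.42, adjusted p = 0.0521), with DESeq2 (−0.43, adjusted p = 0.0738), without TMM scaling (−0.46, adjusted p = 0.0548), with cells that carry other markers left out (−0.39, adjusted p = 0.0837) and at equal depth, where it was −0.11 (adjusted p = 0.909). *Ndufb4* and *Ndufb11* were lost at equal depth too (−0.71 and −0.52, adjusted p = 0.0536 and 0.0544). The cDC2 markers summed to 407, 597 and 446 CPM in cluster 9 (most abundant *Tbc1d4*) against 182, 164 and 170 in resting cells. In the other lists 6 of 78 mitochondrial ribosome genes were lower and 1 higher, beside 1.33% and 4.04% of all genes, and 0 of 13 mt- genes were called by edgeR (0 at unadjusted p < 0.05) and 0 by DESeq2.

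Cluster 10, the activated cluster of 76 cells in which the chemokine gene *Cxcl9* stood at 4745, 4982 and 4769.6 CPM, lay on the other side, with a larger share of oxidative phosphorylation RNA than resting cells. Its nuclear share was 2.39%, 2.39% and 2.43%, higher by 0.283 ± 0.0556 percentage points (n = 3). Of 91 members 8 were higher, against 6.31% of all genes, and 2 lower, against 6.08%. The members' median was 0.14 and that of all genes −0.11. Among genes at 50 CPM or more 10.7% of members and 11.2% of all were higher, and 2.67% and 14.97% lower. With low-count genes included the medians of members and all genes were 0.09 and −0.58 without a filter but 0.19 and 0.33 with DESeq2, so the order of the 2 turns with the tool. The higher count was 5 without WT, 3 without sGSN-/- and 1 without sGSN-/-Clec9a-/-, while DESeq2 called 19 higher and 2 lower. At equal depth 3 were higher and 3 lower, and without TMM scaling 14 and 2.

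The decreases were the firm calls in cluster 10. *Cox7a2l* stood at 195, 164 and 197 CPM against 275, 307 and 322 in resting cells and fell by 0.76 (SE 0.14, adjusted p = 0.000694, lower in 3 of 3 libraries). *Ndufa6* stood at 372, 396 and 341 against 559, 536 and 557 CPM and fell by 0.63 (SE 0.12, adjusted p = 0.000817, lower in 3 of 3 libraries). *Ndufa6* was therefore below its resting level in early cells, cluster 8 and cluster 10, which were all compared with the same resting cells. Among the increases, *Cox7b*, a complex IV subunit, stood at 620, 606 and 579 against 399, 414 and 387 CPM. It rose by 0.53 (SE 0.11, adjusted p = 0.00198, 3 of 3 libraries), but not without sGSN-/- (0.52, adjusted p = 0.0589). *Cox5a* stood at 397, 412 and 485 CPM and rose by 0.62, but not without sGSN-/-Clec9a-/- (0.49, adjusted p = 0.0545) nor at equal depth (0.39, adjusted p = 0.140). *Ndufa9* stood at 106, 70.9 and 114 against 48.5, 58.8 and 56.5 CPM and rose by 0.77, but not without WT (0.64, adjusted p = 0.115) or sGSN-/-Clec9a-/- (0.64, adjusted p = 0.183). *Ndufc1* rose by 0.53, but not without WT (0.50, adjusted p = 0.0512) or sGSN-/-Clec9a-/- (0.50, adjusted p = 0.0640), nor at equal depth (0.33, adjusted p = 0.370). *Atp5g1* rose by 0.49 and *Cox7a2* by 0.38, and both were lost without sGSN-/- (0.60 and 0.33) and without sGSN-/-Clec9a-/- (0.28 and 0.33). *Cox7a2* was also lost with the library as a block (0.37, adjusted p = 0.0688), without a filter (0.33), at equal depth (0.22) and with cells that carry other markers left out (0.32). The cDC2 markers summed to 450, 864 and 361 CPM in this cluster, most abundant *Cd209a*, the monocyte markers to 1024, 1083 and 1094, and the pre-cDC markers to 237, 290 and 120. In the other lists 2 of 78 mitochondrial ribosome genes, 3 of 14 glycolysis genes and 1 of 13 tricarboxylic acid cycle genes were higher, beside 6.31% of all genes, and 0 of 13 mt- genes were called by edgeR (0 at unadjusted p < 0.05) and 0 by DESeq2.

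Set directly against each other, clusters 8 and 10 differed in the same sense. The share of the nuclear genes was 1.66%, 1.63% and 1.64% in cluster 8 and 2.39%, 2.39% and 2.43% in cluster 10. Of 80 members tested 32 were lower in cluster 8, against 16.2% of all genes, and 2 higher, against 18.8%. The members' median was −0.48 and that of all genes 0.01. At 50 CPM or more 41.3% of members and 20.3% of all genes were lower, and 1.33% and 14.6% higher. Complex I held 20 of the lower members of 35 tested, complex V 5 of 17, complex IV 3 of 12, complex III 2 of 8, complex II 1 of 4 and the assembly factors 1 of 4. The counts over all members tested include *Sdhaf1*, which passed the count filter through cluster 8 alone, and *Ndufaf3*, which passed through cluster 10 alone. The lower count was 16 without WT, 17 without sGSN-/- and 30 without sGSN-/-Clec9a-/-, and the higher count 1, 1 and 2. DESeq2 called 19 lower and 1 higher, and without TMM scaling, which moves the median of all genes to −0.16, 52 were lower and 1 higher.

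*Ndufa9* showed the widest gap of the lower members, 26.2, 34.6 and 33.0 CPM in cluster 8 against 106, 70.9 and 114 in cluster 10, a log2 change of −1.46 (SE 0.27, adjusted p = 0.000773, lower in 3 of 3 libraries). *Ndufa8*, a complex I subunit on the intermembrane side, stood at 52.3, 47.2 and 44.6 against 113, 119 and 114 CPM. Its change was −1.09 (SE 0.21, adjusted p = 0.00134, lower in 3 of 3 libraries). *Ndufs8*, which carries iron-sulfur clusters close to the ubiquinone site, stood at 45.5, 55.1 and 73.7 against 135, 135 and 137 CPM, a change of −1.10 (SE 0.24, adjusted p = 0.00246, lower in 3 of 3 libraries). In complex IV, *Cox7b* stood at 258, 275.5 and 274 against 620, 606 and 579 CPM, a change of −0.99. *Sdhaf1* was again the member that rose, 83.3, 96.0 and 58.2 against 28.3, 9.67 and 23.4 CPM, by 2.16 (3 of 3 libraries). *Sdhaf1* passed the count filter of this comparison through cluster 8 alone, so the fit is given as a size only. *Uqcrh*, the other higher member, rose by 0.47, but not without WT (0.46, adjusted p = 0.142) or sGSN-/- (0.44, adjusted p = 0.244), with DESeq2 (0.50, adjusted p = 0.0627), without TMM (0.29, adjusted p = 0.147) or with cells that carry other markers left out (0.42, adjusted p = 0.0624). Other lower calls were fragile. *Ndufaf3*, a complex I assembly factor, stood at 15.5, 15.7 and 7.76 against 46.1, 25.8 and 33.5 CPM, a change of −1.14 (lower in 3 of 3 libraries). As it passed the count filter through cluster 10 alone, the fit is given as a size only. Its call was lost with DESeq2 (−1.17), without a filter (−1.03), without WT (−1.02), without sGSN-/-Clec9a-/- (−0.97) and by state markers (−0.78). *Ndufb8*, a complex I subunit, and *Uqcrb* had the smallest lower changes, −0.50 and −0.49 (adjusted p = 0.0369 and 0.0415, lower in 3 of 3 libraries). Both were lost with the library as a block (−0.50 and −0.49, adjusted p = 0.0531 and 0.0559), with DESeq2 (−0.46 and −0.46), without a filter (−0.37 and −0.37), without WT (−0.49 and −0.52) and without sGSN-/- (−0.56 and −0.28), *Ndufb8* also without sGSN-/-Clec9a-/- (−0.41) and at equal depth (−0.47), and *Uqcrb* with cells that carry other markers left out (−0.46). Among related lists 22 of 58 mitochondrial ribosome genes were lower and 1 higher and 8 of 16 import genes lower, beside 16.2% of all genes lower and 18.8% higher, and *Cycs* fell by 1.08.

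Outside the deposited cDC1s, barcodes were named by marker genes that hold no member. The largest class, 4064 cDC2-like barcodes, had a nuclear share of 2.28%, 2.15% and 2.24%, close to cDC1s, and the cDC2 markers summed to 2326, 2523 and 2461 CPM there (most abundant *Mgl2*). The NK markers summed to 639, 657 and 539 CPM against 76.6, 122 and 86.5 in cDC1s (most abundant *Klrd1*), the macrophage markers to 157, 131 and 171 against 70.1, 33.9 and 47.8, the pDC markers to 175, 187 and 153 against 61.6, 59.8 and 57.0, and the pre-cDC markers to 190, 200.5 and 153 against 74.0, 79.7 and 65.1. Of 91 members 24 were higher than in cDC1s, against 30.1% of all genes, and 20 lower, against 28.7%. Of the 75 members at 50 CPM or more in cDC1s, 15 were higher, against 19.5% of all such genes, and 25.3% were lower, against 48.3%. The members' median was 0.01. The higher count was 11 without WT, 20 without sGSN-/- and 20 without sGSN-/-Clec9a-/-. Without TMM scaling 36 were higher and 14 lower.

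The largest differences between cDC2-like cells and cDC1s lay in isoforms of complex IV and in assembly factors. *Cox6b2* stood at 18.6, 17.9 and 15.8 CPM in cDC2-like cells and 4.96, 5.86 and 6.24 in cDC1s and was higher by 1.55 (SE 0.11, adjusted p = 5.68e-07, 3 of 3 libraries). *Cox7a1* stood at 9.97, 8.74 and 9.25 against 3.86, 5.09 and 4.42 CPM, higher by 1.01 (SE 0.13, adjusted p = 4.70e-05, 3 of 3 libraries). *Sdhaf4*, a factor that binds *Sdha* before complex II forms, stood at 31.6, 32.4 and 32.4 against 15.8, 15.8 and 14.6 CPM, higher by 0.98 (SE 0.06, adjusted p = 1.31e-07, 3 of 3 libraries). In the other direction, *Ndufa4* stood at 250.2, 215 and 234 against 374, 388 and 362 CPM, a change of −0.76 (SE 0.06, adjusted p = 1.75e-06, lower in 3 of 3 libraries). *Ndufaf6* stood at 7.68, 7.52 and 8.27 against 18.9, 20.6 and 19.5 CPM, a change of −1.41 (SE 0.09, adjusted p = 1.31e-07, lower in 3 of 3 libraries). *Sdhaf1* stood at 21.2, 25.6 and 20.7 against 13.5, 16.6 and 12.9 CPM, higher by 0.56 (SE 0.10, adjusted p = 0.000678, 3 of 3 libraries). *Ndufb11* stood at 211, 202 and 216 against 258, 272 and 257 CPM, a change of −0.40 (SE 0.06, adjusted p = 0.000108, lower in 3 of 3 libraries), and *Ndufs4*, a complex I subunit, at 94.7, 99.8 and 97.8 against 114, 123 and 121 CPM, a change of −0.38 (SE 0.06, adjusted p = 0.000282, lower in 3 of 3 libraries). None of these groups overlapped. Of 14 glycolysis genes 12 were higher in cDC2-like cells and 1 lower (median 0.91), of 10 hypoxia genes 8 and 1, and of 78 mitochondrial ribosome genes 11 and 24, beside 30.1% of all genes higher and 28.7% lower.

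The pDC-like class, 268 barcodes outside the sort gates, had the highest mt- share of the 6 marker-named classes. The nuclear share was 2.55%, 2.40% and 2.64%, which overlaps that of NK cell-like barcodes (2.49 ± 0.0705%), and the mt- share was 2.48%, 2.86% and 3.28%, against 1.65%, 1.75% and 2.02% in cDC1s. In pre-cDC-like barcodes the mt- share was 2.17%, 2.45% and 2.93%, lower in each library but with an overlapping range. The 8 pDC markers summed to 3840, 4569 and 4267 CPM (most abundant *Tcf4*) against 61.6, 59.8 and 57.0 in cDC1s. Markers of other types were high too: the 6 monocyte markers summed to 4419, 5104 and 5237 CPM against 717, 850.1 and 819 (most abundant *Plac8*), the 6 NK markers to 722, 666 and 648 against 76.6, 122 and 86.5 (most abundant *Klrd1*), the 5 pre-cDC markers to 3592, 4365 and 3938 against 74.0, 79.7 and 65.1 (most abundant *Ly6c2*), and the 9 cDC2 markers to 698, 749.8 and 719 against 253, 264 and 227 (most abundant *Cd209a*). Some marker lists share genes. *Tcf4* and *Ly6d* are in the pDC and pre-cDC lists and *Ly6c2* in the pre-cDC and monocyte lists, so their sums are not separate measures. Of 92 members 16 were higher, against 18.2% of all genes, and 17 lower, against 22.2%. The 92 and the 16 include *Cox6a2*, which passed the count filter through the pDC-like barcodes alone. Of the 75 members at 50 CPM or more in cDC1s, 14.7% were higher, against 14.7% of all such genes, and 15 members were lower, against 45.4%. The higher count was 8 without WT, 14 without sGSN-/- and 10 without sGSN-/-Clec9a-/-, and the lower count 8, 9 and 13, with 7 lower at equal depth. These counts turn on the scaling. Without TMM the median of all genes moves from −0.05 to 0.25, that of the members from −0.03 to 0.27, and 46 members are higher and 3 lower. With low-count genes included the median of all genes was 0.30 with DESeq2 and −0.39 without a filter, and that of the members −0.01 and −0.08. The mt- genes had 7 of 13 higher (median 0.35), led by *mt-Nd2*, a complex I subunit, at 0.60. Of these, *mt-Atp6*, *mt-Co1* and *mt-Cytb* were no longer called without sGSN-/- (0.47, 0.35 and 0.35), and *mt-Cytb* also not at equal depth (0.28).

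*Cox6a2*, the heart and muscle form of a complex IV subunit, marked these cells. It stood at 425, 335 and 395 CPM in pDC-like barcodes, from 408, 247 and 262 UMIs, and at 0.214, 0.297 and 0.699 CPM in cDC1s, from 7, 7 and 15 UMIs. It passed the count filter in this comparison alone, through the pDC-like barcodes. The fit is thus given as a size only, a log2 difference of 9.68 (3 of 3 libraries). How much of the cDC1 level is background was not tested. At least 1 UMI was found in 42.2% of pDC-like barcodes (113 of 268, 95% Clopper-Pearson interval 36.2% to 48.3%, median depth 8962.5 UMIs). In NK cell-like barcodes, with a median of 6914 UMIs, it was 0.791%, in cDC2-like barcodes 0.591% and in cDC1s 0.396% (median depth 13501 UMIs). The pre-cDC-like class stood between, with 8.78% of 205 barcodes and 25.3, 37.6 and 10.7 CPM. Its gate shares *Tcf4* and *Ly6d* with the pDC gate, and what pDCs contribute to this class was not tested. Many cells of both classes lie at the cut of the marker rule, as 157 of the 205 pre-cDC-like and 112 of the 268 pDC-like barcodes hold just the 3 markers needed, and 387 and 274 more barcodes were 1 marker short. The widely expressed form, *Cox6a1*, was present as well, and its lower level in pDC-like cells was lost without TMM (−0.04) without WT (−0.29, adjusted p = 0.0686) or at equal depth (−0.26, adjusted p = 0.104).

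The assembly factors again spread widely in pDC-like cells. *Sdhaf1* stood at 44.8, 44.7 and 73.9 CPM against 13.5, 16.6 and 12.9 in cDC1s, higher by 1.60 (SE 0.20, adjusted p = 1.05e-05, 3 of 3 libraries), and it was high in pre-cDC-like cells too, at 64.9 ± 9.28 CPM. *Ndufaf4* stood at 45.8, 31.2 and 60.3 against 19.1, 18.8 and 16.9 CPM, higher by 1.01 (SE 0.19, adjusted p = 0.000431, 3 of 3 libraries). *Sdhaf4* stood at 32.3, 31.2 and 39.2 against 15.8, 15.8 and 14.6 CPM, higher by 0.84 (SE 0.16, adjusted p = 0.000714, 3 of 3 libraries). *Ndufaf6* was lower by the fit at −1.31, with 11.5, 6.78 and 10.6 CPM. *Ndufa6* stood at 425, 384 and 472 against 513, 473 and 513 CPM, a change of −0.53 (SE 0.10, adjusted p = 0.000596, lower in 3 of 3 libraries). *Sdhb* stood at 209, 186 and 250.4 against 120, 131 and 114 CPM and was higher by 0.52 (SE 0.11, adjusted p = 0.00160, 3 of 3 libraries). *Sdha* was also called higher, but not with the library as a block (0.28, adjusted p = 0.0822), without a filter (0.23) or at equal depth (0.41). Its call was lost without any 1 library too (0.26, 0.30 and 0.30). *Atp5md*, a small subunit that helps complex V to pair, stood at 449, 354 and 421 against 542, 488 and 510.1 CPM, a change of −0.63 (SE 0.10, adjusted p = 0.000138, lower in 3 of 3 libraries). *Sdhaf3*, with a change of −1.18, was lost without any 1 library (−1.69, −1.11 and −0.86), with the library as a block (−1.17), with DESeq2 (−1.18), without TMM (−0.88) and at equal depth (−1.07). Of 14 glycolysis genes 7 were lower and 1 higher, and of 80 cytosolic ribosome genes 48 and 1, beside 22.2% of all genes lower (45.4% at 50 CPM or more) and 18.2% higher.

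**Figure D3:**
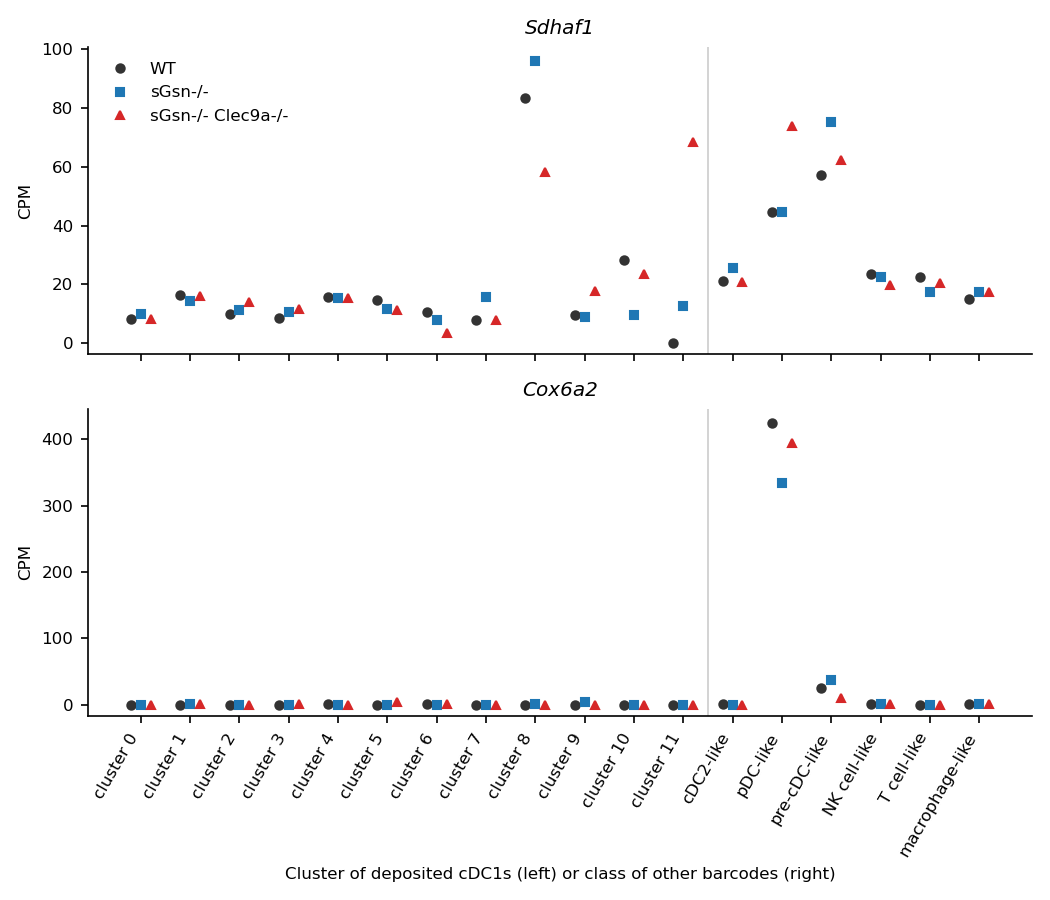
Level of *Sdhaf1* (top) and *Cox6a2* (bottom) in CPM, on axes that include 0, in the 12 cDC1 clusters and in 6 marker-named classes of other barcodes, 1 point per library. *Sdhaf1* averages 79.2 CPM in cluster 8, 64.9 in pre-cDC-like and 54.5 in pDC-like barcodes, and *Cox6a2* averages 385 CPM in pDC-like and 24.6 in pre-cDC-like barcodes.

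The isoform pairs of complex IV were used very unequally in cDC1s. *Cox4i1*, the general form of subunit 4, stood at 674, 740.5 and 749 CPM, and *Cox4i2*, the lung form known to respond to low oxygen, had 3, 7 and 3 UMIs. *Cox6b1* stood at 400.0, 401 and 404 CPM and *Cox6b2* at 4.96, 5.86 and 6.24. *Cox7a2* stood at 340.1, 350.5 and 335 CPM, *Cox7a2l* at 259, 288 and 312, and *Cox7a1* at 3.86, 5.09 and 4.42. *Ndufa4l2*, the hypoxia-induced relative of *Ndufa4*, had 2, 1 and 1 UMIs, although these cells come from a tumour, while macrophage-like barcodes had 1.504 CPM. The 3 genes for the c ring of complex V encode the same mature protein, and all were expressed, *Atp5g1* at 307, 328 and 314 CPM, *Atp5g2* at 463, 479 and 461 and *Atp5g3* at 226, 235 and 226.

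Between genotypes the nuclear genes were nearly level in cDC1s, and the mitochondrial ones were not. Over the 75 members at 50 CPM or more, the median ratio was 1.03 for sGSN-/- over WT, 1.001 for sGSN-/-Clec9a-/- over WT and 0.981 for sGSN-/-Clec9a-/- over sGSN-/-. The widest departures were small. *Cox7a2l* stood at 259, 288 and 312 CPM, a ratio of 1.20 for sGSN-/-Clec9a-/- over WT (95% counting interval 1.16 to 1.24), and was higher there in 11 of 12 clusters and 6 of 6 marker-named classes. *Cox7c*, another complex IV subunit, stood at 997, 880.1 and 921 CPM, a ratio of 0.883 for sGSN-/- over WT (0.867 to 0.898), and was lower there in 6 of 6 classes and all clusters but 1. *Ndufa9* had ratios of 1.14 and 1.16 for the mutants over WT, higher in 10 and 9 of 12 clusters but in 3 and 5 of 6 classes. For sGSN-/- over WT, *Cox5a* had 1.12, higher in 10 of 12 clusters but in 1 of 6 classes, and *Ndufa3* 0.887, higher in 1 of 12 clusters and 0 of 6 classes. *Ndufv3* was at 0.921 of WT in sGSN-/-Clec9a-/-, and higher in 3 of 12 clusters and 3 of 6 classes. Against sGSN-/-, sGSN-/-Clec9a-/- had ratios of 0.871 for *Sdhb* and 0.909 for *Atp5d*, each higher in 1 of 12 clusters but 3 of 6 classes, and 1.13 for *Atp5k*, higher in 10 of 12 clusters and 6 of 6 classes. With 1 library each, these ratios describe the libraries and cannot be told apart from pool or preparation.

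The mt- share of cDC1s was 1.65%, 1.75% and 2.02%, and sGSN-/-Clec9a-/- stood above sGSN-/- in 12 of 12 clusters and 6 of 6 other classes, and above WT in 11 of 12 clusters and 6 of 6 classes, while sGSN-/- stood above WT in 8 of 12 clusters and 6 of 6 classes. By gene the ratio of sGSN-/-Clec9a-/- over WT ran from 0.825 for *mt-Nd4l* to 1.44 for *mt-Co3*, which stood at 2250, 2440 and 3229 CPM. Of the 13 genes 9 had a ratio above 1. The nuclear share had another order: it was higher in sGSN-/-Clec9a-/- than in sGSN-/- in 8 of 12 clusters and 6 of 6 classes, higher in sGSN-/-Clec9a-/- than in WT in 6 of 12 clusters and 1 of 6 classes, and higher in sGSN-/- than in WT in 5 of 12 clusters and 0 of 6 classes. The ratio of nuclear to mitochondrial share in cDC1s was therefore 1.31, 1.25 and 1.07. As the mt- share also rises with cell damage, and the pools differ in mice and handling, genotype and preparation cannot be told apart here.

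The members are scattered over the genome. They lie on 19 chromosomes, with at most 10 on any 1, and *Ndufa1*, *Ndufb11* and *Cox7b* are on the X chromosome (GRCm38). They are short genes, whose longest transcripts have a median of 908 bases against 2526 bases for the 2405 genes at 50 CPM or more. Those that carried the results are *Sdhaf1* (ENSMUSG00000074211, minus strand of chr7:30321406-30323895), *Ndufaf6* (ENSMUSG00000050323, minus strand of chr4:11051045-11076205), *Ndufa6* (ENSMUSG00000022450, minus strand of chr15:82350140-82354322), *Cox5a* (ENSMUSG00000000088, plus strand of chr9:57521274-57532426) and *Cox6a2* (ENSMUSG00000030785, minus strand of chr7:128205435-128206387).

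Because so many members moved together, their promoters were searched for motifs of factors known to drive respiratory chain genes. RefSeq promoters of build GRCm38.p6 were found for 80 members (85 promoters, 250 bases before the start each), and both strands were searched for exact letters. The NRF1 motif, a palindrome of 10 letters, was in 5 member promoters (5.88%), against 0.782% of all 32851 promoters and 1.70% of those of genes at 50 CPM or more. The ETS motif CCGGAAG, which the GABP factor binds, was in 16 (18.8%), against 6.91% and 16.01%, and the YY1 motif AAGATGGC in 1 (1.18%), against 1.56% and 2.43%. The ETS share was thus close to that of other well-expressed genes. A match describes the letters and shows no binding. The 5 promoters with the NRF1 motif are shown because they belong to 3 different groups, complex V (*Atp5g2* and *Atp5k*), the electron-carrying complexes (*Cox6a1* and *Ndufa11*) and assembly (*Ndufaf4*). They are written 5′ to 3′ on the strand of the gene, at chr15:102671048-102671297, chr5:108434400-108434649, chr5:115348959-115349208, chr17:56717512-56717761 and chr4:24897833-24898082 in that order, the first 3 on the minus strand and the last 2 on the plus strand, with motif letters in capitals (*Cox6a1* also holds the ETS motif).
Atp5g2: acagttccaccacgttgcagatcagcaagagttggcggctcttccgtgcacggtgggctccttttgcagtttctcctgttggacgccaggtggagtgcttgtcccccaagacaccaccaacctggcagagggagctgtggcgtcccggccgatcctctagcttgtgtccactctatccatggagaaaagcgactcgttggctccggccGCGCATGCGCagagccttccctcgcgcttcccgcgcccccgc
Atp5k: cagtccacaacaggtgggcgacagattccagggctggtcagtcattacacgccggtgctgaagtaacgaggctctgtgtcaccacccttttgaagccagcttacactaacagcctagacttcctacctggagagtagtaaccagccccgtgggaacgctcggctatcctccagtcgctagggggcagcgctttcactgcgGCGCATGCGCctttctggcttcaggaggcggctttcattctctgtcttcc
Cox6a1: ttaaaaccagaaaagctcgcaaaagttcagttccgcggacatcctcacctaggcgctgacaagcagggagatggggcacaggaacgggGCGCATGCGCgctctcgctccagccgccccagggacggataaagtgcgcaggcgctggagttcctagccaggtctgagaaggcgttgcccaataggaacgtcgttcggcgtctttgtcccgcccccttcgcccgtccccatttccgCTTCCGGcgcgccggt
Ndufa11: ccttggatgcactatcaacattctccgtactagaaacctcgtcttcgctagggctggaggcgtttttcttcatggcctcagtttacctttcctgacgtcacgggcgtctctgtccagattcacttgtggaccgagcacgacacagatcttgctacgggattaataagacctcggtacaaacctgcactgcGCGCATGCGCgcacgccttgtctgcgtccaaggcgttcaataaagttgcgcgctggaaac
Ndufaf4: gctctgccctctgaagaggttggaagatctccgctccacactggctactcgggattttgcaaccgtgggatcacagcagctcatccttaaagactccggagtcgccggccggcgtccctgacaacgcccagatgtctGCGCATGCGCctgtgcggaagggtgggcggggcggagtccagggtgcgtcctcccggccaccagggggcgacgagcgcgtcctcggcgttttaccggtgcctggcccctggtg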

How the data were processed

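The authors deposited UMI counts per gene and barcode for 3 droplet libraries, made with Cell Ranger 6.0.1 on mm10 (GRCm38), and a table of cDC1s that they had integrated and clustered with Seurat (4.0.0 in the record of the samples, version 3 in R 4.0.0 in the paper; resolution 0.8), from which the library and cluster of each cell were used and its UMI count was checked. The table's UMI count equals the matrix total in 4559 of 5806 cells and differs by at most 34 elsewhere. Counts were summed per library and group. Groups were compared with edgeR 4.0.16 (TMM, filterByExpr, quasi-likelihood F-test, R 4.3.3), with Benjamini-Hochberg adjustment over all genes tested and a threshold of 0.05, after a test on simulated counts. SE was taken as the size of the fitted change over the root of the F statistic. Clusters were called on these same counts, so an adjusted p describes how alike the libraries are.

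Members and lists were chosen with earlier results of these data known. Named are the 4 called members with the largest and the 4 with the smallest fold change in each comparison, complex II, isoform pairs, the mt- genes, and the widest genotype ratios; *Mdh2*, *Cycs*, *Ppargc1b*, *Esrra* and *Twnk*, and the members named for their range, their level or their single call, were picked after their values were seen. Other barcodes needed 200 genes or more, an mt- share under 16.7% and at least 2 UMIs of at least 3 markers of 1 class, a rule chosen after the data were seen. There were 54 barcodes with fewer genes and 1300 above the mt- cut, which 3 deposited cDC1s also exceeded. Of 23052 other barcodes that passed both cuts, 8524 were named and 14528 were not. No doublet caller was run. Sums from 1 library share a pool of mice, and a library's departures from the 2 group means correlated across genes by 0.209, 0.149 and 0.236 for early and resting cells, which is why the library block was an alternative. The others were DESeq2 1.42.0, no TMM, no filter, each library left out, cells thinned to 3900 UMIs, mt- genes left out, cells with markers of other types left out and cells chosen by state markers. Thinning left out 288 cDC1s, 84 cDC2-like and 27 pDC-like barcodes that had fewer UMIs. Intervals (SciPy 1.17.1) and floors cover counting error only.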

Additional observations from a re-analysis of the deposited data

Results flagged for a closer look

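*Ndufb1-ps*, the only name left out by the rule on -ps names, was not in the comparisons but had a mean of 606 CPM in cDC1s (629, 571 and 618 CPM in WT, sGSN-/- and sGSN-/-Clec9a-/-), far above the 0.0918, 0.127 and 0.140 CPM that 3 UMIs would give.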

How the results depend on the processing

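Of 101 calls of single genes, 47 held under each alternative. The 101 include *Ndufaf3* in cluster 8 against cluster 10 and *Cox6b2* in cluster 8, which passed the count filter through a single group. Some of the 101 are not described above, such as *Sdhb* in cluster 7 and *Sdha* and *Sdhc* in cDC2-like barcodes, whose calls were lost in some settings. Over the 996 alternatives of the 101 calls 814 kept the call, 181 lost it and 1 turned the direction: *Ndufa4* in pDC-like barcodes, 0.0263 without TMM. The cause of the shifts below was not tested, except that leaving out a library or thinning leaves fewer counts. With the library as a block, early cells had 2 members lower, cluster 7 had 45 higher and cluster 9 had 10 lower. With DESeq2, cluster 9 had 17 lower, cluster 10 had 19 higher, and cluster 8 against cluster 10 had 1 higher and 19 lower. DESeq2 and the fit without a filter also test low-count genes, and their medians of all genes in cluster 8 were 0.36 and −0.36 (17392 genes tested). Without TMM, cluster 7 had 5 higher, cluster 8 had 62 lower, cluster 10 had 14 higher, cluster 8 against cluster 10 had 1 higher and 52 lower, and pDC-like barcodes had 46 higher and 3 lower. Without a filter, cluster 7 had 15 higher, cluster 9 had 17 lower and cluster 8 against cluster 10 had 19 lower. Thinned to equal depth, cluster 7 had 12 higher and 1 lower, cluster 9 had 2 lower, cluster 10 had 3 higher and pDC-like barcodes had 7 lower. With cells carrying other markers left out, cluster 9 had 8 lower and cluster 8 against cluster 10 had 1 higher. By state markers, cluster 10 had 13 higher and cluster 8 against cluster 10 had 50 lower. These markers chose 151 cells for the cluster 10 state, only 64 of them in cluster 10. For the cluster 8 state they chose 146 cells, 144 of them in cluster 8. Leaving out 1 library gave 39 to 56 higher in early cells, 9 to 11 higher and 1 to 1 lower in cluster 7, 19 to 37 lower in cluster 8, 0 to 1 lower in cluster 9, 1 to 5 higher in cluster 10, 1 to 2 higher and 16 to 30 lower in cluster 8 against cluster 10, 11 to 20 higher in cDC2-like barcodes, and 8 to 14 higher and 8 to 13 lower in pDC-like barcodes. As a mean of single-cell shares, the nuclear share of cluster 8 minus resting was −0.681 and that of cluster 10 minus resting 0.223 percentage points. With the 12 clusters weighted equally the nuclear share was 1.998%, 1.996% and 2.018% in WT, sGSN-/- and sGSN-/-Clec9a-/-, and with mt- genes left out of the total 2.19%, 2.22% and 2.20%. Median depths from 2348 to 14925 UMIs limit members under 50 CPM in the small clusters.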
